A study of Mus musculus with 8 samples.

Results

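*Cntn2*, which encodes contactin 2, is described here together with the other genes of its family in the embryonic mouse ventricle. Of the 53465 genes counted, 8 were taken by symbol: the 6 contactins *Cntn1*, *Cntn2*, *Cntn3*, *Cntn4*, *Cntn5* and *Cntn6*, and *Cntnap1* and *Cntnap2*, which encode the contactin-associated proteins Caspr and Caspr2. *Cntn2* was chosen by its counts in these samples, for a strong fall in the mutants, and for its known place in the conduction system, so its difference between genotypes is given as a description without a test. The other 7 genes entered by family name.

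The samples were heart ventricles of embryos at embryonic day 9.5 (E9.5), 4 from wild-type (WT) embryos and 4 from Nrg-1flox;Tie2-Cre embryos, called mutant from here on. In the mutants *Nrg1*, the gene for the growth factor neuregulin 1, is deleted by a Cre recombinase under the *Tie2* promoter. This promoter is active in endothelial cells, including the endocardium that lines the ventricle, and also in blood cell lineages, and other cells keep the gene. The labels do not say whether a sample is 1 embryo or a pool, nor whether the WT embryos carry a floxed allele or Cre. The p-values therefore measure the spread between these samples, which may be technical.

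Contactins are cell adhesion proteins of the immunoglobulin superfamily, built of immunoglobulin and fibronectin domains and held in the membrane by a lipid anchor. They have no cytoplasmic part of their own and act together with transmembrane partners such as the Caspr proteins, L1-type adhesion molecules and receptor tyrosine phosphatases. They are best known from axons: contactin 1 and Caspr form the junctions beside the nodes of Ranvier, and contactin 2 and Caspr2 hold potassium channels next to them. In the heart, contactin 2 marks the cells of the conduction system, above all the Purkinje fibres, whose precursors lie in the trabeculae.

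*Nrg1* was lower in the mutants, with counts of 61, 59, 71 and 72 against 156, 131, 121 and 173 in WT, and the values of the genotypes did not overlap. Total counts ranged from 11852372 to 14360323 per sample in WT and from 12430368 to 14223860 in the mutants. Genes were compared between genotypes with edgeR's quasi-likelihood test and Benjamini-Hochberg adjustment, and passed at a false discovery rate (FDR) under 0.05. Of all genes tested, 8.62% passed, 5.11% higher and 3.5% lower in the mutants, and the counts given for each gene list stand beside these shares. The summed level of 12 cardiomyocyte genes ranged from 39640 to 41660 CPM (counts per 1000000 counts of the library) in WT and from 36910 to 41040 in the mutants, which fits the labelled tissue. All 10 erythroid genes passed and were higher in the mutants, with a summed level of 17530 to 62180 CPM against 6069 to 7322 in WT, and 5 of 7 outflow genes tested passed, all 5 lower (3.5% over all genes). The sum of 6 epicardial genes was 127.7 to 195.1 CPM in WT and 198.4 to 331.1 CPM in the mutants, and 2 of the 6 passed, both higher (5.11% over all genes). The sum of 10 endothelial genes was 996.2 to 1078 CPM in WT and 871 to 945.6 CPM in the mutants, and 1 of the 10 passed, lower (3.5% over all genes). The erythroid sum was highest in mutant replicate 1. The part of these cell types in the results below was not tested.

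*Cntn2* was low in both genotypes and lower in the mutants. Its counts were 17, 21, 15 and 29 in WT replicates 1 to 4 and 3, 6, 8 and 7 in mutant replicates 1 to 4. After scaling for library size by the trimmed mean of M-values (TMM), these were 1.3, 1.5, 1.23 and 1.96 CPM in WT. The mutant values were 0.254, 0.434, 0.575 and 0.577 CPM. Every mutant value lay below every WT value, WT replicate 4 was the highest of the 8 and mutant replicate 1 the lowest. Of all 14451 genes tested, 9.45% likewise had no overlap with the mutants lower. The mean level was 1.5 CPM ± 0.329 (SD, n = 4) in WT and 0.46 CPM ± 0.153 (SD, n = 4) in the mutants, a log2 fold change of -1.68. Over the summed libraries, the mutants held *Cntn2* at 30.6% of the WT level, 3.27-fold lower. Because *Cntn2* was chosen for a strong fall in these same samples, the size of the fall may be overstated, which was not tested.

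These values rest on few reads. The 4 WT samples held 82 *Cntn2* counts in all, with an exact Poisson 95% interval of 65.2 to 102, and the 4 mutant samples held 24, with an interval of 15.4 to 35.7. These intervals cover counting error only. Within WT the SD of the counts was 6.19 where counting alone would give 4.53, and within the mutants it was 2.16 where counting would give 2.45. Only 4.17% of the genes tested had a mean level at or below that of *Cntn2*. In such whole-tissue samples, fewer cells that express a gene and less RNA per cell cannot be told apart.

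**Figure D1:**
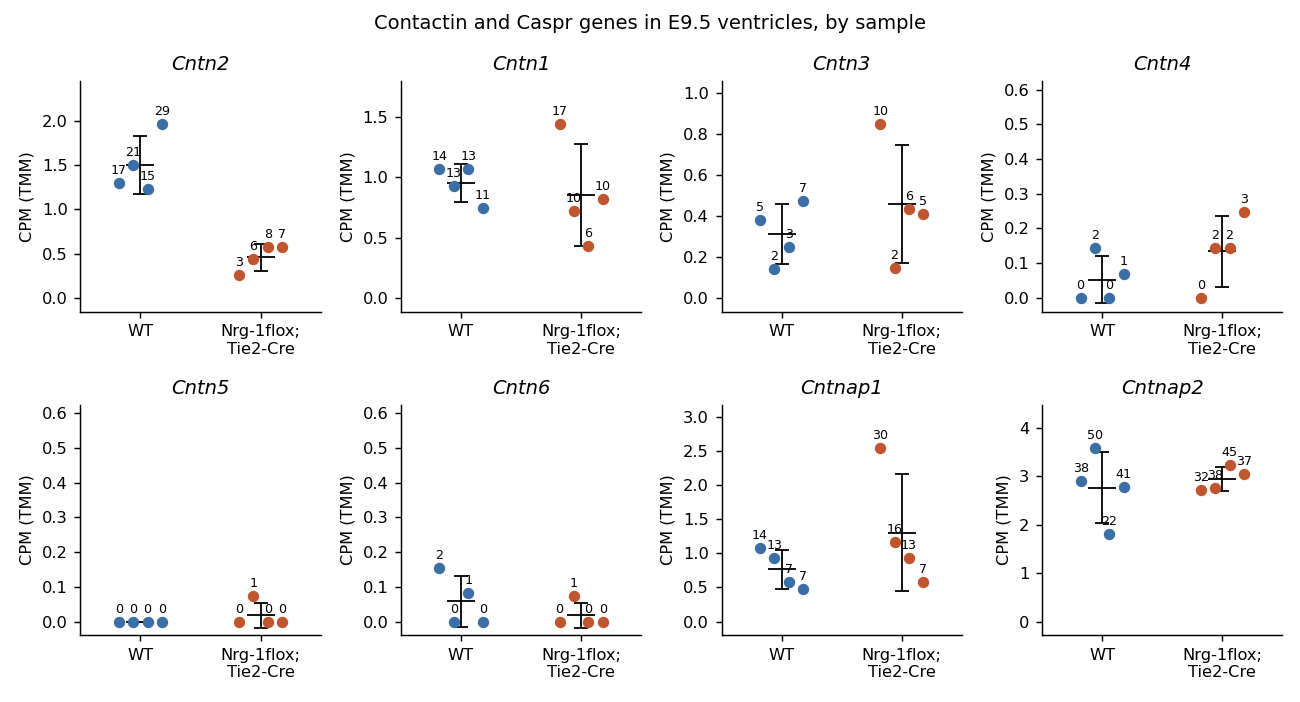
Level of each contactin and Caspr gene in CPM (TMM-scaled, vertical axes from near 0, scales differ between panels) in the 4 WT and 4 Nrg-1flox;Tie2-Cre samples. Points are samples in order of replicate number with their rounded count above, and bars are the mean and SD (n = 4). For *Cntn2* the mutant counts of 3 to 8 lie below the WT counts of 15 to 29, and for each other gene the genotypes overlap.

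*Cntn2* is a minus-strand gene of chromosome 1 (chr1:132509427-132543256 in the mouse genome build GRCm38), with 8 annotated transcripts and 9304 exonic bases. No other annotated gene overlaps it. The promoter of *Cntn2* is shown because it is the member whose level differs most between genotypes. The sequence, from RefSeq on build GRCm38.p6, runs from 250 bases before to 50 bases after the start of transcription at chr1:132542891-132543190 on the minus strand, 5′ to 3′. This RefSeq start lies 316 bases inside the gene as annotated above, so the window falls within the gene, and capitals mark the only match to a motif searched.

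Cntn2 promoter: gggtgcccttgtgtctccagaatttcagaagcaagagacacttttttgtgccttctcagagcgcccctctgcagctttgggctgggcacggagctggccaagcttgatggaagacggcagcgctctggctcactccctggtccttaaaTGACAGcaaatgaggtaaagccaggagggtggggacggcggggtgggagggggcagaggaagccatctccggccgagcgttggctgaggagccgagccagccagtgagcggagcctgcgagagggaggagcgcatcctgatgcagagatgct

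Motifs of 6 families of factors with roles in the heart were searched on both strands. The match is TGACAG, the core that Meis homeodomain factors bind, which begins 102 bases before the start and was added to the search after the sequence had been read. It is found in 19.2% of 32851 promoter windows of this length. The window held no match to CCGGAA for ETS factors (14.9% of windows), TNAAGTG for NKX factors (11.5%), AGGTGT for T-box factors (13.7%), AGATAA for GATA factors (11.2%) or ACANNTGT for Iroquois factors (7.38%). None of these strings contains another. The Meis string was also found in windows of *Cntn1*, *Cntn5* and *Cntnap2*, the NKX string in a window of *Cntn3*, and the Iroquois and GATA strings in windows of *Cntn4*. A match is a string in the sequence and no measure of binding. The GC content of the window was 61.3%, against a median of 52.7% over all windows. RefSeq windows were found for 7 of the 8 members.

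The 3 protein-coding genes on either side of *Cntn2* were examined next. *Tmem81* ends 787 bases from *Cntn2* on the plus strand, and its level was 1.32 CPM ± 0.448 (SD, n = 4) in WT and 1.64 CPM ± 0.404 (SD, n = 4) in the mutants. *Rbbp5*, which encodes a subunit of histone methyltransferase complexes, lies 3767 bases away and had a log2 fold change of 0.06 (standard error 0.07). *Dstyk*, a kinase gene, had 0.01 (standard error 0.08). On the other side, the nearest edge of *Nfasc*, its 3′ end, lies 21433 bases away. The gene encodes neurofascin, itself a partner of contactin 1 and Caspr. Its counts were 7, 12, 5 and 4 in WT and 5, 5, 6 and 4 in the mutants, too low for the test. *Lrrn2* had a log2 fold change of -0.38 (standard error 0.30), which was -0.12 without mutant replicate 1. *Mdm4*, which encodes an inhibitor of p53, had 0.04 (standard error 0.10). Of the 5 neighbours tested 0 passed with edgeR, beside 8.62% over all genes, a share at which 0 of 5 says little about them. The count at an unadjusted p under 0.05 was also 0, as was the count with DESeq2 and with limma-voom.

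Among the other members, *Cntn1*, *Cntnap1* and *Cntnap2* passed the filter on low counts and *Cntn3*, *Cntn4*, *Cntn5* and *Cntn6* did not, so 4 of 8 members passed it, *Cntn2* among them. Of the 3 tested members other than *Cntn2*, 0 passed with edgeR (8.62% over all genes), 0 had an unadjusted p under 0.05, and 0 passed with DESeq2 or limma-voom. With no filter all 7 were tested and again 0 passed, with 0 at an unadjusted p under 0.05.

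*Cntn1* encodes the contactin of the axonal junctions beside the nodes. Its counts were 14, 13, 13 and 11 in WT and 17, 10, 6 and 10 in the mutants. The mutant samples spread above and below all WT samples, and mutant replicate 1 was the highest of the 8. The mean level was 0.953 CPM ± 0.154 (SD, n = 4) in WT and 0.855 CPM ± 0.425 (SD, n = 4) in the mutants. The log2 fold change was -0.17 with a 95% interval of -0.97 to 0.63, which spans changes of either sign (edgeR's quasi-likelihood test, adjusted p = 0.815). Without mutant replicate 3 it was 0.06.

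*Cntnap1* encodes Caspr, the transmembrane partner of contactin 1. Its counts were 14, 13, 7 and 7 in WT and 30, 16, 13 and 7 in the mutants. Mutant replicates 1 and 2 were the highest of the 8 samples, and mutant replicates 3 and 4 lay within the WT range. The mean level was 0.762 CPM ± 0.284 (SD, n = 4) in WT and 1.3 CPM ± 0.861 (SD, n = 4) in the mutants. The log2 fold change was 0.76 with a 95% interval of -0.29 to 1.80 (edgeR's quasi-likelihood test, adjusted p = 0.352), and without mutant replicate 1 it was 0.24. *Cntnap1* shares 233 exonic bases with *Plekhh3* on the opposite strand, whose counts of 98 to 154 exceed its own. The use of strand in the counting is not given in the sources used here, so reads of the shared stretch cannot be assigned with certainty.

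*Cntnap2* encodes Caspr2, the partner of contactin 2 where potassium channels are held in axons. Its counts were 38, 50, 22 and 41 in WT and 32, 38, 45 and 37 in the mutants. The mutant values lay inside the WT range. The mean level was 2.77 CPM ± 0.731 (SD, n = 4) in WT and 2.94 CPM ± 0.25 (SD, n = 4) in the mutants. The log2 fold change was 0.08 with a 95% interval of -0.40 to 0.56 (edgeR's quasi-likelihood test, adjusted p = 0.853), and without WT replicate 3 it was -0.07. *Cntnap2* spans 2244.9 kb of chromosome 6 and 28 annotated genes lie within or across it, 4 of them on the opposite strand.

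The remaining contactins did not pass the filter. *Cntn3* was detected in all 8 samples and had counts of 5, 2, 3 and 7 in WT and 10, 2, 6 and 5 in the mutants, and the mutants held 1.42 times the WT level with a counting interval of 0.724 to 2.82. *Cntn4* had counts of 0, 2, 0 and 1 in WT and 0, 2, 2 and 3 in the mutants, a ratio of 2.44 with a counting interval of 0.557 to 14.6. *Cntn6* had counts of 2, 0, 1 and 0 in WT and 0, 1, 0 and 0 in the mutants. *Cntn5* had no count in WT and 1 count in mutant replicate 2. A count of 0 over the 4 WT samples allows a level of up to 0.0555 CPM, taken as 3 counts, and over the 4 mutant samples of up to 0.0581 CPM. No difference between genotypes was detectable in these 4 genes at this depth. *Cntn3*, *Cntn4* and *Cntn6* lie on chromosome 6 together with *Cntnap2*, and *Cntn5*, *Cntn1* and *Cntnap1* on chromosomes 9, 15 and 11.

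Levels of different genes were compared per exon length, in TPM (the length-scaled share of a sample, per 1000000) over the union of annotated exons. In WT the order was *Cntnap2* at 0.827 TPM ± 0.212 (SD, n = 4), *Cntn2* at 0.495 TPM ± 0.108 (SD, n = 4), *Cntnap1* at 0.397 TPM ± 0.146 (SD, n = 4), *Cntn1* at 0.311 TPM ± 0.0475 (SD, n = 4) and *Cntn3* at 0.142 TPM ± 0.0667 (SD, n = 4). Neighbours in this order overlapped down to *Cntn1*, whereas the WT samples of *Cntn1*, at 0.25 to 0.35 TPM, lay above those of *Cntn3*, at 0.0646 to 0.216 TPM. *Cntn6*, *Cntn4* and *Cntn5* had mean WT levels of 0.0278, 0.019 and 0 TPM. *Cntn2* thus was the most abundant contactin per length in WT, where every one of its samples, from 0.413 to 0.648 TPM, was above every sample of *Cntn1*. In the mutants the order changed to *Cntnap2*, *Cntnap1*, *Cntn1*, *Cntn3* and *Cntn2*, with mean levels of 0.746, 0.563, 0.228, 0.172 and 0.131 TPM. There, *Cntn1*, *Cntn3* and *Cntn2* overlapped. Of these genes only *Cntn2* changed place relative to the others, which follows from the counts by which it was chosen. Its rank in WT rests on the same counts. Among 26119 genes with a count in WT, the level per length of *Cntn2* stood at the 37.5th percentile and that of *Cntnap2* at the 42.9th.

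*Cntn2* supplied 41.9%, 54.2%, 45.1% and 56.9% of the summed TPM of the 6 contactins in WT replicates 1 to 4 and 8.97%, 25.1%, 33.3% and 25.4% in mutant replicates 1 to 4. The lower share in the mutants follows from the counts by which *Cntn2* was chosen. The summed level of the 6 contactins was 0.995 TPM ± 0.11 (SD, n = 4) in WT and 0.593 TPM ± 0.102 (SD, n = 4) in the mutants. The sum of the other 5 was 0.5 TPM ± 0.0733 (SD, n = 4) in WT and 0.462 TPM ± 0.14 (SD, n = 4) in the mutants. TPM carries no TMM scaling, and small differences between genotypes can turn with the scaling. *Cntnap2* had 0.827 TPM in WT and 0.746 in the mutants, but 2.77 and 2.94 CPM.

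**Figure D2:**
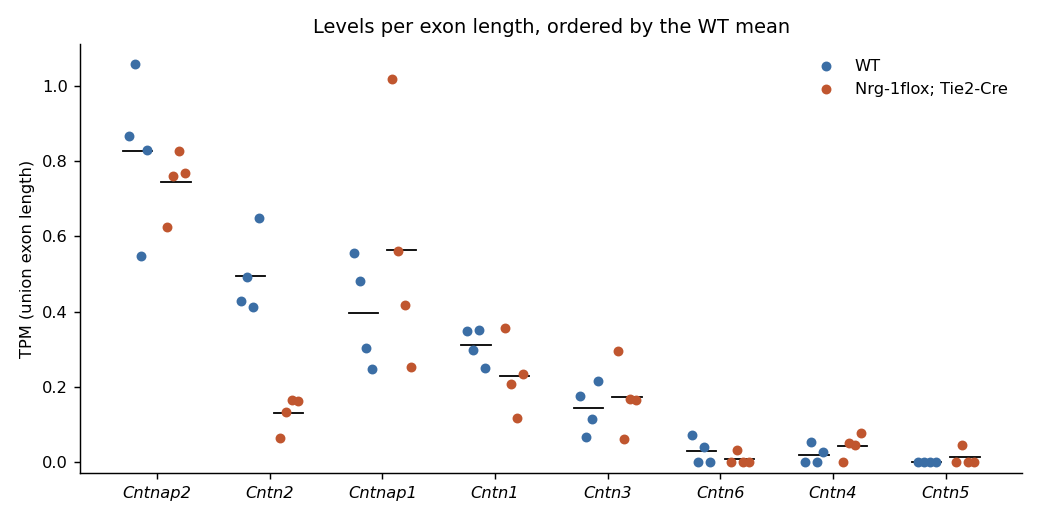
Level of each member per union exon length in TPM (vertical axis from near 0) by genotype, ordered by the WT mean. Points are samples and lines are means (n = 4). *Cntn2* stood second in WT, at 0.413 to 0.648 TPM, and was at a mean of 0.131 TPM in the mutants, next to *Cntn3*.

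The same *Cntn2* counts were also expressed relative to genes of the tissue's main cell types, as a description. Relative to the summed counts of the 12 cardiomyocyte genes, *Cntn2* stood at 31.9, 36.1, 30.9 and 49.5 counts per 1000000 in WT and 6.89, 10.8, 14.4 and 14.1 in the mutants. The log2 ratio of the means was -1.68. Relative to the 10 endothelial genes it was -1.52. Neural markers were checked since contactins are abundant in neurons and neural crest derivatives. Of 18 such markers 9 passed the filter, and 0 of the 9 had FDR under 0.05 with edgeR, with 0 called by DESeq2 or limma-voom. The share over all genes was 8.62%, at which 0 of 9 says little about them. The 1 marker at an unadjusted p under 0.05 was *Stmn2*, which like *Cntn2* was lower in the mutants. Its log2 fold change was -0.82 (edgeR's quasi-likelihood test, adjusted p = 0.138). The values of the 9 ranged from -0.82 to 0.23, with a median of -0.05. With no filter 17 were tested and 0 passed, with 2 at an unadjusted p under 0.05. Their summed level was 38.8 to 46.4 CPM in WT and 34.9 to 42.4 CPM in the mutants. *Foxd3*, a marker of neural crest, had at most 1 count in a sample. The part of neural cells in the *Cntn2* difference was not tested.

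*Cntn2*, known as a marker of the conduction system, was set beside 31 genes of the ventricular conduction system and the trabeculae. Whether it marks trabecular cells at E9.5 was not tested. Of the 29 tested, 11 were lower and 1 was higher in the mutants (FDR under 0.05), beside 3.5% lower and 5.11% higher over all genes tested. The median log2 fold change of the list was -0.28, against -0.0014 over all genes. This list and the lists that follow were chosen with earlier results of these data known, so the counts and medians do not test the lists. *Slit2*, a secreted guidance ligand of trabecular cells, fell from 50.3 CPM ± 9.92 to 15.2 CPM ± 2.31 (SD, n = 4 each), a difference of -1.72 on the log2 scale (standard error 0.15; edgeR's quasi-likelihood test, adjusted p = 0.00119). This value lies beside that of *Cntn2*, at a far higher level. *Irx3*, a homeobox factor of the fast conduction network, had a log2 fold change of -1.43, and *Sema3a*, a semaphorin that patterns cardiac nerves, of -1.1. *Irx2*, another homeobox factor, fell by 0.75 on the log2 scale, and *Tbx3*, the T-box factor of nodal cells, fell by 0.72. *Nppb*, the gene for B-type natriuretic peptide, was the member that rose, by 0.94.

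The others that passed, all lower, were *Cacna1d*, *Bmp10*, *Cacna2d2*, *Etv1*, *Gjc1* and *Id2*, with log2 fold changes from -0.62 to -0.28. The genes named next did not pass. *Gja5*, which encodes the fast conduction gap junction protein Cx40, had a log2 fold change of -0.36 with a 95% interval of -0.88 to 0.16. *Nppa*, an atrial and trabecular peptide gene, had 0.17 with an interval of -0.06 to 0.40. *Hcn4*, a pacemaker channel gene, had -0.12 with an interval of -0.35 to 0.10. The number of genes called in the list was 12 with all samples, but 6 without mutant replicate 4, WT replicate 3 or WT replicate 4, 5 without WT replicate 1 or 2, and 14 without mutant replicate 1. *Slit2*, *Irx3*, *Sema3a* and *Irx2* passed in each of the 8 fits with 1 sample left out, whereas *Tbx3* did not pass without mutant replicate 4 or any 1 of the WT samples, and *Nppb* did not pass without WT replicate 1, 2 or 4.

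**Figure D3:**
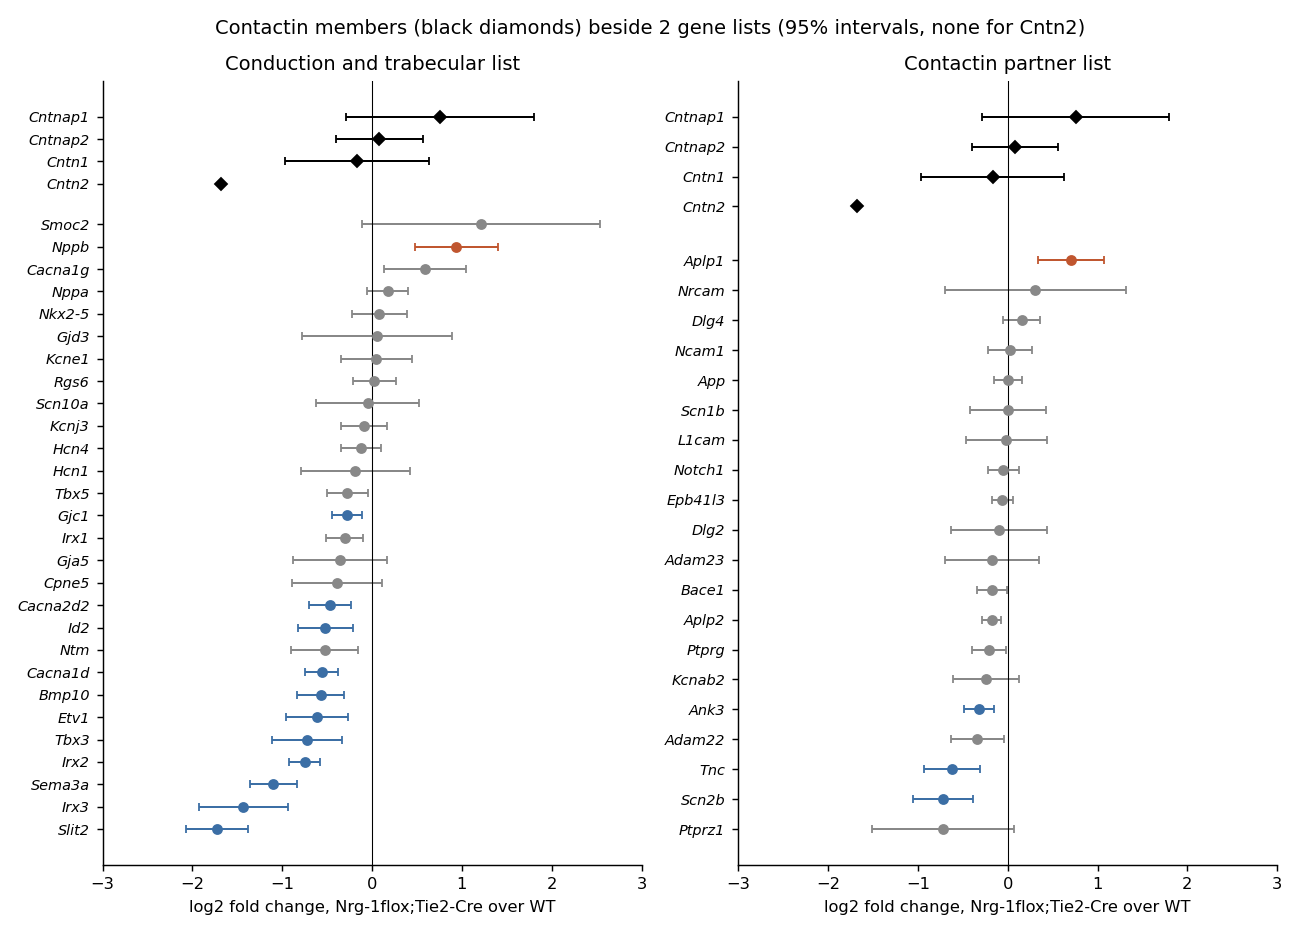
Log2 fold change of mutant over WT (horizontal axis) for the 4 members that passed the filter (black diamonds, repeated in both panels) and, with 95% intervals, for the tested genes of the conduction and trabecular list (left, 28 of the 29 genes) and the contactin partner list (right, 20 genes). Blue and orange circles are genes lower and higher at FDR under 0.05, grey ones did not pass. *Cntn2*, at -1.68, is drawn without an interval because it was chosen by this difference, and the intervals of *Cntn1*, *Cntnap1* and *Cntnap2* include 0.

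The proteins that contactins act with in nerve were followed in a list of 26 genes. Of these, 20 were tested, 3 were lower and 1 was higher at FDR under 0.05 (over all genes 3.5% lower and 5.11% higher), and the median log2 fold change was -0.14. *Scn2b*, which encodes a sodium channel beta subunit with an immunoglobulin domain, fell from 5.45 CPM ± 0.215 to 3.3 CPM ± 0.475 (SD, n = 4 each), a log2 fold change of -0.72 (edgeR's quasi-likelihood test, adjusted p = 0.018). *Tnc*, the gene for the matrix protein tenascin C, fell by 0.62, and *Ank3*, which encodes the membrane scaffold ankyrin G, fell by 0.32. *Aplp1*, of the amyloid precursor family, rose by 0.71. The number of genes called was 0 without mutant replicate 4, WT replicate 3 or WT replicate 4, and 2 without WT replicate 1 or 2. *Ank3* did not pass without mutant replicate 3 or 4, nor without any 1 of the WT samples.

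The genes named next are partners that did not pass. *L1cam*, an adhesion molecule that contactin 2 binds, had a log2 fold change of -0.02 with a 95% interval of -0.47 to 0.43, and *Nrcam*, another, 0.31 with an interval of -0.70 to 1.31. *Epb41l3*, which encodes the cytoskeletal adaptor of Caspr proteins, was abundant at 204 CPM ± 5.76 (SD, n = 4) in WT and had -0.06 with an interval of -0.17 to 0.05. The potassium channel genes *Kcna1* and *Kcna2*, whose products contactin 2 and Caspr2 hold in axons, had at most 3 and 1 counts per sample. *Ptprz1*, a receptor phosphatase bound by contactin 1, had -0.72 with an interval of -1.51 to 0.07, and *Ptprg*, a partner of several contactins, -0.21 with an interval of -0.40 to -0.02 (edgeR's quasi-likelihood test, adjusted p = 0.158).

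Of the other Caspr genes, *Cntnap3* and *Cntnap5a* had at most 3 counts in a sample, *Cntnap4*, *Cntnap5b* and *Cntnap5c* had none, and 0 of the 5 passed the filter. With no filter 2 were tested and 0 passed, with 1 at an unadjusted p under 0.05. Of 16 related adhesion and guidance receptors with immunoglobulin domains, 12 were tested and 2 were lower, beside 3.5% lower over all genes tested. *Robo1*, which encodes a receptor for Slit ligands, fell by 0.46 on the log2 scale. *Alcam*, the gene for an adhesion molecule of leukocytes and axons, fell by 0.26, and did not pass without WT replicate 1. *Ntm*, the gene for neurotrimin, a lipid-anchored adhesion protein, had -0.53 and did not pass (edgeR's quasi-likelihood test, adjusted p = 0.081). Its mutant values lay below those of WT without overlap, as for 9.45% of all genes tested. *Ntm* is also in the conduction and trabecular list.

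The genes most like *Cntn2* were ranked by Pearson's r of log2 CPM, as a description. Over the 8 samples, which includes the difference between genotypes, these were *Mrpl49* (0.987), *Lrrc1* (0.982), *Ppp1r17* (0.982), *Lef1* (0.981) and *Hspa4* (0.98), and a gene like *Cntn2* by this measure is bound to be lower in the mutants. *Lef1*, a transcription factor of Wnt signalling, stood at 29.9 CPM ± 2.59 (SD, n = 4) in WT and 18 CPM ± 3.2 (SD, n = 4) in the mutants. An r over 0.9 was reached by 319 of 14450 genes. With the genotype means removed, genes among the highest were *L3mbtl2* (0.994), *Exosc1* (0.992), *Bod1* (0.984) and *Tctn3* (0.98), and 189 genes were over 0.9. Both lists rest on the same 8 libraries and on *Cntn2* counts of 3 to 29. Among the members, r with *Cntn2* over the 8 samples was -0.69 for *Cntnap1* and -0.06 for *Cntn1* and for *Cntnap2*, and with the genotype means removed it was -0.83, -0.84 and 0.42 in the same order.

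The log2 fold change of *Cntn2* was compared across the processing choices. With other normalizations, tests and filters it ranged from -1.7 to -1.66, and with 1 sample left out from -1.81 without mutant replicate 3 to -1.5 without mutant replicate 1. Since the counts of the genotypes do not overlap, its sign was fixed by the choice of the gene.

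**Figure D4:**
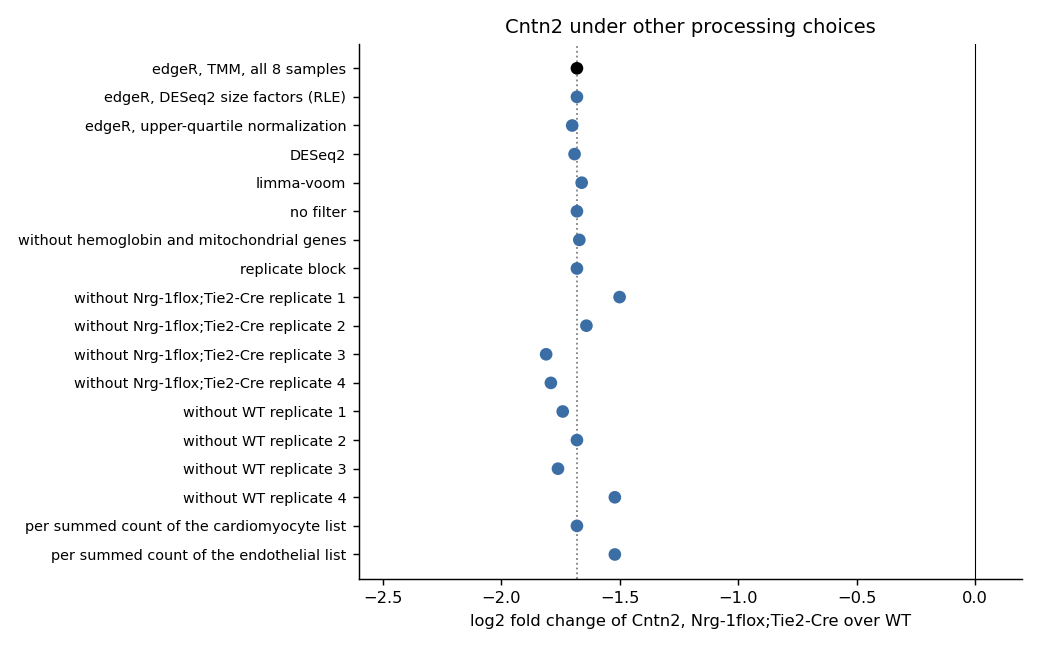
Log2 fold change of *Cntn2*, mutant over WT (horizontal axis), under each processing choice that gave a value. The black point is the value reported with all 8 samples and the dotted line repeats it. Values range from -1.81 to -1.5.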

How the data were processed

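Polyadenylated RNA of E9.5 ventricles was sequenced in single reads of 60 bases (4 WT and 4 Nrg-1flox;Tie2-Cre samples). The authors deposited a table of RSEM expected counts per gene on GRCm38, not scaled for library size or length. Per the labels, cutadapt and RSEM 1.3.1 were used. The aligner and the use of strand are not given in the sources used here. Symbols were assigned to 53274 of 53465 genes, and coordinates and exon lengths come from GENCODE M21 (GRCm38).

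Expected counts were rounded. Genotypes were compared in edgeR 4.0.16 under R 4.3.3 (filterByExpr by genotype with its minimum count of 10, TMM, quasi-likelihood test, Benjamini-Hochberg over 14451 genes, FDR threshold 0.05). Standard errors are the fold change over the square root of F. Correlations use log2 CPM with a prior count of 2. The test was checked on simulated counts. No samples of a genotype were alike within counting error (lowest ratio of chi-square to its degrees of freedom 3.59).

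The fits were repeated with other normalizations and filters, with DESeq2 1.42.0 and limma-voom (limma 3.58.1), blocked by replicate number, with hemoglobin and mitochondrial genes removed, with each sample left out, and with *Cntn2* per cardiomyocyte or endothelial count. Members, lists and tests were chosen with earlier results of these data known. Named genes are the members, *Nrg1*, 3 protein-coding neighbours on each side of *Cntn2*, up to 6 genes per list with FDR under 0.05 by fold change, and the 5 most like *Cntn2* by each correlation. Some genes that these rules name are not reported here. Genes named beyond these were chosen after their values were seen.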

Additional observations from a re-analysis of the deposited data

Results flagged for a closer look

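Within groups of 4 samples, 1 sample lay far from the other 3 in 3 of 78 groups examined, where chance gives about 3.9. Divided by the group's range, its distance from the next sample was 0.87 for *Lrrn2*, a neighbour of *Cntn2*, and 0.887 for *Irx3*, both lowest in mutant replicate 1. It was 0.854 for the endothelial marker sum, lowest in mutant replicate 3. No contactin or Caspr gene was among them.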

How the results depend on the processing

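A replicate block left 616 genes past FDR 0.05 (398 higher, 218 lower) 8 in the conduction list (7 lower) and 2 in the partner list, with *Tbx3* (adjusted p = 0.0523, edgeR), *Scn2b* (0.0708) and *Ank3* (0.0631) no longer past it, while *Cntn2* stayed at -1.68. The labels name no pairing, deviations of same-numbered samples had a mean r of -0.016 over genes, and no sample correlated best with its own number. With 1 sample left out, from 509 to 2523 genes passed (335 to 1368 higher, 174 to 1155 lower), the largest number without mutant replicate 1 and the smallest without WT replicate 1, with 5 to 14 of the conduction list and 0 to 5 of the partner list. The fold changes of these genes, none past the threshold, turned sign in some of those fits: *Cntn1* (-0.527 to 0.0589), *Cntnap2* (-0.0698 to 0.231), *Dstyk* (-0.0195 to 0.0489), *Rbbp5* (-0.0035 to 0.0975), *Mdm4* (-0.0341 to 0.0912) and *Exosc1* (-0.113 to 0.00259). *Dstyk* also did so with upper-quartile normalization (-0.00693). The causes were not tested. Requiring 10 counts in each sample left *Cntn2* untested. Depth limits *Cntn3*, *Cntn4*, *Cntn5* and *Cntn6*, with at most 10 counts in a sample.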
